A study of Homo sapiens with 3 samples.

Results

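The S100 proteins are a family of small calcium-sensing proteins, and the annexins are a family of calcium-dependent membrane-binding proteins. Their genes were read together in drug-naive NCI-H1975 cells, an established human lung adenocarcinoma line. Members were the protein-coding genes whose symbols are S100A followed by a number (with or without a final A), S100B, S100G, S100P, S100Z, or ANXA followed by a number. The rule found 32 genes, 20 S100 genes and 12 annexin genes, among 19056 protein-coding genes and 60880 gene rows in all. The names use no measured value, so the levels below are open to description, but with 1 library there is no test between conditions.

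S100 proteins are short proteins that carry a pair of EF-hand calcium-binding loops, usually act as dimers, and change the activity of partner proteins when calcium rises. Annexins carry a repeated core that docks onto acidic phospholipids when calcium is present, and they work in membrane repair, vesicle traffic and the linkage of membranes to actin. The families meet directly, since S100A10 forms a tetramer with annexin A2 and S100A11 binds annexin A1. Several S100 proteins are also released from cells and act on surface receptors, and in lung tumours members of both families are known markers of epithelial and inflammatory states.

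In the study, wild-type NCI-H1975 cells and cells that had become resistant to anlotinib went through RNA-seq and ATAC-seq, a map of open chromatin, and RNA-seq was also run on resistant cells in which TFAP2A, an AP-2 transcription factor, was knocked down. Anlotinib is an inhibitor of several receptor tyrosine kinases. The values here come from 1 RNA-seq library, wild-type replicate 2, untreated as far as the labels say, from cells kept in RPMI medium with 10% fetal calf serum. The resistant cells, the knockdown cells and the 2 wild-type ATAC-seq samples were not analysed here.

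The library held 25012733 counts. A gene was called detected at 10 counts or more, and levels are given as CPM, the counts per 1000000 counts of the library. A single read was worth 0.04 CPM, and a gene at 0 may still have had a level of 0.12 CPM (3 counts). Brackets after a value hold its 95% counting interval, which covers counting error only, because there is no replicate and the reads carry no molecular identifiers that would make them independent. No transcript lengths were used, so a ratio of 2 genes below compares numbers of reads and not of molecules, and longer transcripts give more reads. The label of a lung epithelial line was checked on 12 markers, of which 10 were detected. They were led by the keratins KRT7, KRT8 and KRT19 at 5299, 2622 and 1933 CPM, while the surfactant gene SFTPC had 1 count and the club cell gene SCGB1A1 had 0.

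Of the 32 members 22 were detected, or 68.8%, beside 69.7% of all protein-coding genes at the same minimum, so the share detected was close to that of genes at large. The same 69.7% is the background for every group and list counted here. At 100 CPM or more stood 9 members, 4 S100 genes and 5 annexins, beside 11.1% of all protein-coding genes. Only S100A6 and ANXA2 passed 1000 CPM, a level reached by 0.367% of protein-coding genes. The remaining 10 members lay under the minimum, 4 of them with 1 to 9 counts and 6 at 0, beside 21.2% of protein-coding genes at 0. The median over all 32 members was 20.7 CPM, against 9.83 CPM over all protein-coding genes. Among detected genes only, the medians were 50.5 CPM for members and 26.4 CPM for protein-coding genes.

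The families took nearly equal parts of the library. The S100 genes held 71400 counts, or 0.285% (0.283 to 0.288) of all counts, and the annexins held 66592 counts, or 0.266% (0.264 to 0.268). The S100 reads were the more unevenly spread. S100A6 alone held 56.4% (56.0 to 56.7) of them, and S100A6, S100A11, S100A10 and S100A16 together held 94.0% (93.8 to 94.2). Among the annexins, ANXA2 held 40.5% (40.1 to 40.9), ANXA2 and ANXA1 together 70.2% (69.9 to 70.6), and the leading 5 held 93.7% (93.5 to 93.8).

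**Figure D1:**
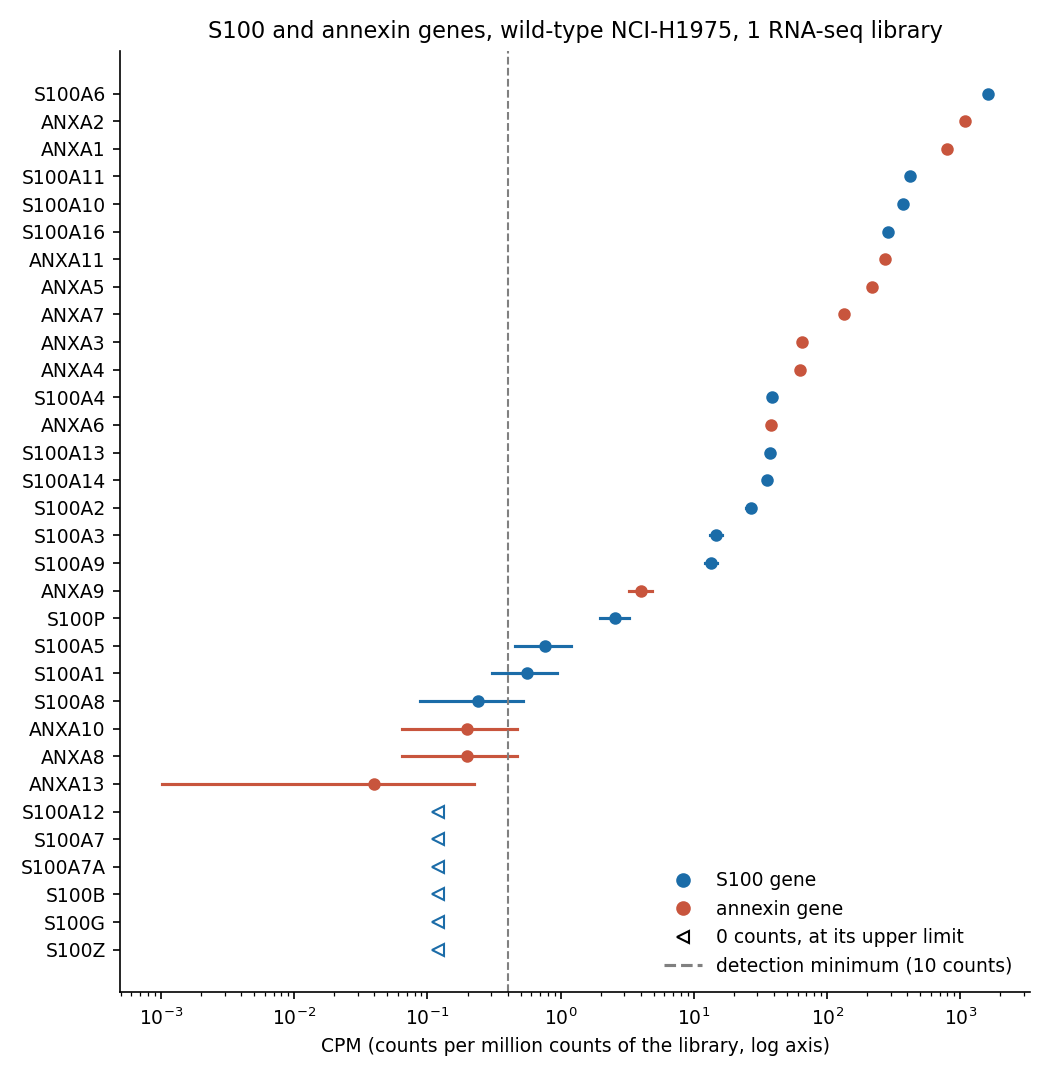
Level of each of the 32 genes in CPM on a log axis, ordered by counts, with bars for the 95% counting interval (hidden by the point where narrow), open triangles for genes at 0 placed at the upper limit of 0.12 CPM, and a dashed line at the minimum of 10 counts. S100A6, ANXA2 and ANXA1 stand at the top between 791 and 1609 CPM, a group of 5 genes from S100A4 to S100A2 lies between 26.7 and 38.8 CPM, and 6 S100 genes are at 0.

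The sequences before the transcription starts are shown because genes of very different read number in these families share the same core element. RefSeq promoter windows (GRCh38.p14, 250 bases before to 50 after a start) matched 29 of the 32 members by symbol, with 40 windows in all. S100B, ANXA8 and ANXA13 had none. The TATA-box sequence TATAAA was searched on the gene's own strand, starting 40 to 20 bases before the start. It was found for 11 of the 29 genes, or 37.9%, against 4.24% of 15238 protein-coding genes with a window. Counted per window, a unit unlike the share of genes, it was in 2.30% of all 35116 windows. It was present both in genes with many reads and in genes at 0. Below are the last 60 bases before the start for genes from the highest to the lowest count, with TATAAA in capitals.
ANXA2 (chr15:60397987-60398046, - strand): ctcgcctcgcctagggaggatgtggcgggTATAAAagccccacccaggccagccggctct
ANXA1 (chr9:73151805-73151864, + strand): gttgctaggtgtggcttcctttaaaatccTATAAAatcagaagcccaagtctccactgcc
S100A4 (chr1:153545807-153545866, - strand): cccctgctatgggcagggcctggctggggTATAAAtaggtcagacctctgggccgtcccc
S100A9 (chr1:153357794-153357853, + strand): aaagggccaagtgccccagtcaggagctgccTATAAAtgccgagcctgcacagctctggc
S100P (chr4:6693818-6693877, + strand): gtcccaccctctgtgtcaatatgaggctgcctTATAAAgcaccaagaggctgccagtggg
S100A8 (chr1:153391074-153391133, - strand): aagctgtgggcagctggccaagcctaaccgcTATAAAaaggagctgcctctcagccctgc
ANXA2 and ANXA1 had 26979 and 19785 counts, S100A4 had 970, S100A9 had 337, S100P had 64 and S100A8 had 6. In ANXA2, ANXA1 and S100A4 the element began 31 bases before the start, in S100A9 and S100A8 29 bases and in S100P 28 bases. S100A8 and S100A13 each have 3 windows, not all of which hold TATAAA. For S100A8 the window that holds it is printed. The other members with it were S100A13, ANXA10, S100A7, S100A7A and S100G. Only the exact sequence was searched, so near matches, such as tataag in the S100A6 bases printed below, are not counted. Of the 22 detected members 6 held TATAAA, and of the 7 members under the minimum that had a window 5 held it. The same shares among protein-coding genes were 2.40% and 8.77%.

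S100A7 and S100A7A, neighbouring copies that were both at 0, are shown over 80 bases, because their starts are nearly the same and carry both TATAAA and an AP-2 sequence (capitals). AP-2 factors, of which TFAP2A is one, bind sequences of the form GCCNNNGGC, which reads the same on both strands and does not overlap TATAAA.
S100A7 (chr1:153460652-153460731, - strand): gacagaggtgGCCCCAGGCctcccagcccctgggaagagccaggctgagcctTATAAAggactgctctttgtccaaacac
S100A7A (chr1:153416440-153416519, + strand): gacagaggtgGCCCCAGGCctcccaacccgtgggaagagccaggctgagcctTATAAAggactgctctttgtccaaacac
Over the 250 bases before the start, 241 positions, or 96.4%, were identical between these copies. Reads from such copies may be split or dropped in counting, but here neither row had any.

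GCCNNNGGC was found in the windows of 11 of the 29 members, or 37.9%, against 33.9% of protein-coding genes, so the members' share was near the background. Counted per window and not per gene, it was in 23.2% of all windows. The families differed in number, with 7 of 10 annexins (ANXA2, ANXA3, ANXA4, ANXA5, ANXA6, ANXA7 and ANXA11) against 4 of 19 S100 genes (S100A2, S100A6, S100A7 and S100A7A). The member with the most reads, S100A6, carried it 170 bases before its start. Its 250 bases before the start follow, with the match in capitals.
S100A6 (chr1:153535992-153536241, - strand): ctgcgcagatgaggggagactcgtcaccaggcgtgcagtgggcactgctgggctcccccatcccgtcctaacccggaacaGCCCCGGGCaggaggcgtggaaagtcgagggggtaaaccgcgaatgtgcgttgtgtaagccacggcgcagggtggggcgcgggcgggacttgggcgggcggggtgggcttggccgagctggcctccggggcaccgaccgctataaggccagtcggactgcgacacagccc
A match is a description of letters, since no binding or accessibility was analysed here. The AP-1 sequence TGANTCA, also the same on both strands and unable to overlap the other motifs, was in the windows of 5 members (ANXA2, S100A2, S100A3, S100A5 and S100A12), or 17.2%, against 8.11% of protein-coding genes. Genes with several windows have more chances to hold a match, in the members and in the background alike.

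CpG dinucleotides were fewer in most S100 windows than in most annexin windows, with overlap between the families. The median number per 300-base window was 5 for the 19 S100 genes and 20.3 for the 10 annexins, against 22 for all protein-coding genes with a window. The 13 detected S100 genes had a median of 5.5, beside 25 for detected protein-coding genes. S100A6, S100A10 and S100A11 had the highest numbers among the S100 genes, with 31, 32 and 22 CpG. S100A13 came next with a mean of 14 over its 3 windows. ANXA1 had the opposite make-up to ANXA2. Its window held 0 CpG and 37.7% G and C, whereas that of ANXA2 held 32 CpG and 76.0% G and C, although both genes were among the 3 members with the most reads. S100A16, with 7181 counts, had a mean of 5.5 CpG over its 2 windows.

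**Figure D2:**
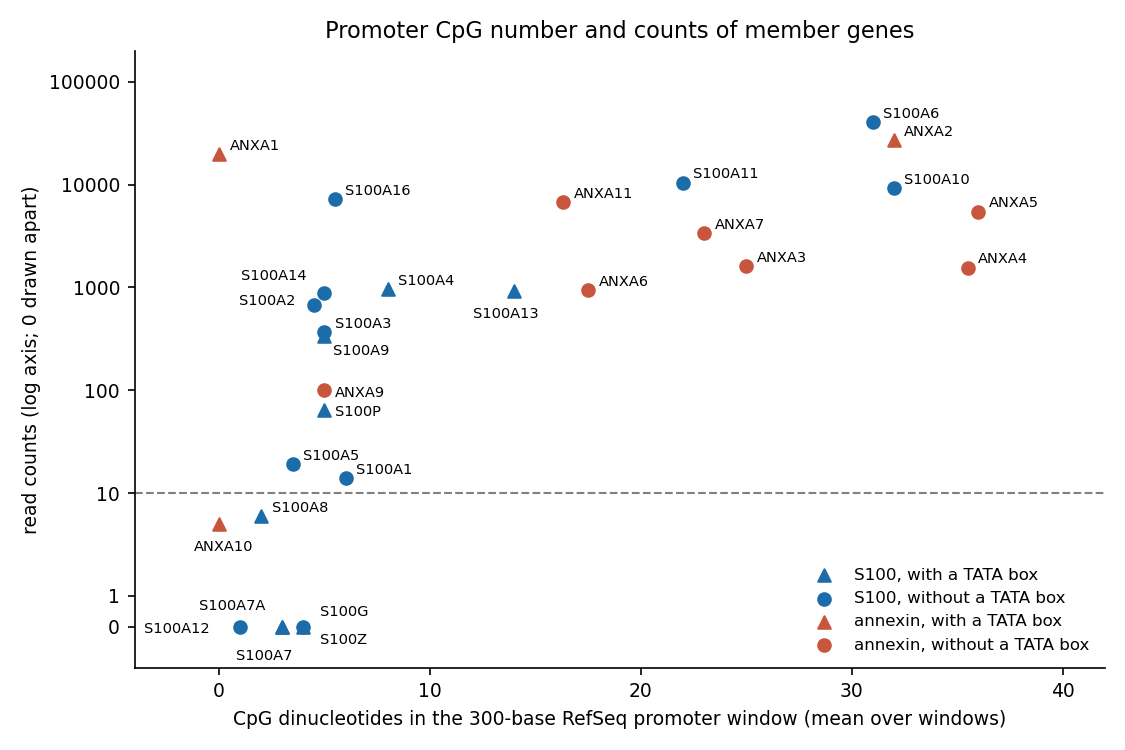
CpG dinucleotides per 300-base RefSeq promoter window against read counts for the 29 genes with a window. The horizontal axis gives the mean where a gene has several windows, and the vertical log axis draws 0 apart. Triangles mark genes that hold the exact TATA-box sequence TATAAA, and circles mark the rest, near matches included. The genes under the dashed minimum of 10 counts all have 4 CpG or fewer, while genes above it span 0 (ANXA1) to 36 (ANXA5).

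S100A10 and S100A11, the S100 genes grouped here as annexin-binding, had many reads, as did ANXA2 and ANXA1. The group holds these 2 genes only, and no protein was measured. S100A11 (ENSG00000163191.5_2), known for binding annexin A1 and for roles at the plasma membrane, had 10452 counts, or 418 CPM (410 to 426). This exceeded 97.7% of detected protein-coding genes. S100A10 (ENSG00000197747.8_2), also called p11, which does not need calcium because its loops have lost their binding residues, had 9253 counts, or 369.9 CPM (362 to 378). The ratio of S100A10 to S100A11 counts was 0.885 (0.861 to 0.91), so the order of these reads was outside counting error. S100A10 had 0.343 (0.335 to 0.351) times the counts of ANXA2, and S100A11 had 0.528 (0.516 to 0.541) times those of ANXA1.

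**Figure D3:**
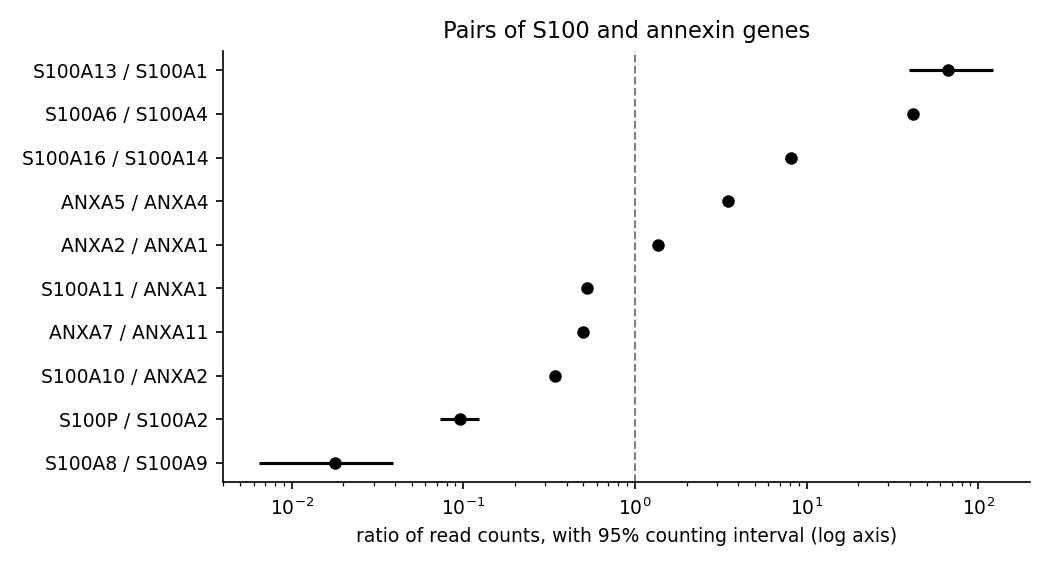
Ratio of read counts for 10 pairs of genes, with 95% counting intervals, on a log axis where the dashed line marks equal counts. The pairs run from S100A8 to S100A9 at 0.0178 to S100A13 to S100A1 at 66.5, and no interval reaches 1.

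Among S100 genes linked to epithelia or tumours, all 7 were detected, over a wide range. S100A6 (ENSG00000197956.9_2), or calcyclin, a partner of the ubiquitin-pathway adaptor CACYBP, had 40248 counts, or 1609 CPM (1593 to 1625). This exceeded 99.8% of detected protein-coding genes. S100A16, a broadly expressed member, had 7181 counts, or 287 CPM (280 to 294). It had 8.07 (7.52 to 8.66) times the counts of S100A14, its neighbour on the chromosome and an epithelial member. S100A4, which binds non-muscle myosin IIA and is often read as a marker of motile cells, S100A13, which takes part in the non-classical release of FGF1, and S100A14 were close to each other. They had 970, 931 and 890 counts, or 38.8, 37.2 and 35.6 CPM, near the middle of detected protein-coding genes. S100A6 had 41.5 (38.9 to 44.3) times the counts of S100A4. S100A2, a nuclear member that binds p53, had 668 counts, or 26.7 CPM (24.7 to 28.8). S100P, which binds ezrin, was the lowest of this set with 64 counts, or 2.56 CPM (1.97 to 3.27), and had 0.0958 (0.0729 to 0.124) times the counts of S100A2.

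The inflammatory S100 genes were low or at 0, and only S100A9 of 5 was detected. S100A9, which with S100A8 forms calprotectin, the abundant antimicrobial complex of neutrophils and monocytes, had 337 counts, or 13.5 CPM (12.1 to 15.0). S100A8 had 6 counts, so its reads were 0.0178 (0.00649 to 0.0392) times those of S100A9. S100A12, a neutrophil protein, and S100A7, the psoriasin gene of inflamed skin, and its copy S100A7A were at 0. Of 10 leukocyte markers, CD14 was detected with 600 counts, while the others had 9 counts or fewer: FCER1G had 9, PTPRC and ITGAM had 2 each, CSF3R, FCGR3B, LYZ and TYROBP had 1 each, and AIF1 and MPO had 0. The whole leukocyte list held 617 counts, of which CD14 gave 600. The source of the S100A9 reads was not tested.

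S100 genes known from single tissues were also low or at 0, with 3 of 6 detected. S100A3, a protein of the hair cuticle, had 367 counts, or 14.7 CPM (13.2 to 16.3). S100A5, best known from olfactory neurons, had 19 counts, or 0.76 CPM (0.457 to 1.19), and S100A1, a regulator of calcium handling in muscle, had 14 counts, or 0.56 CPM (0.306 to 0.939). S100B, the glial and melanocytic member, S100G, the vitamin D-dependent calcium carrier of intestine, and S100Z were at 0. Of 7 glial and melanocytic markers 3 were detected, among them GFAP with 265 counts and PMEL with 99, while SOX10 had 3, DCT had 1 and MLANA had 0.

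All 7 widely expressed annexins passed the minimum, and their median level was 218 CPM. ANXA2 (ENSG00000182718.16_5), which links membranes to actin and, with S100A10, binds plasminogen activators at the cell surface, had 26979 counts, or 1079 CPM (1066 to 1092). ANXA1 (ENSG00000135046.13_3), a glucocorticoid-induced protein that restrains inflammation through formyl peptide receptors, had 19785 counts, or 791 CPM (780 to 802), and ANXA2 had 1.36 (1.34 to 1.39) times its counts. ANXA11 and ANXA7, annexins with long N-terminal tails that bind the calcium sensors PDCD6 and sorcin, had 6770 and 3378 counts, or 271 and 135 CPM, a ratio of ANXA7 to ANXA11 of 0.499 (0.479 to 0.52). ANXA5, the annexin used to stain exposed phosphatidylserine, had 5457 counts, or 218 CPM (212 to 224), and 3.51 (3.31 to 3.71) times the counts of ANXA4, an annexin of secretory epithelia with 1556 counts. ANXA6, whose core is duplicated, was the lowest of these with 949 counts, or 37.9 CPM (35.6 to 40.4).

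Of 5 tissue-restricted annexins 2 were detected. ANXA3, an annexin of neutrophils and several epithelia, had 1607 counts, or 64.2 CPM (61.1 to 67.5), in the range of ANXA4. ANXA9, which lacks conventional calcium sites, had 100 counts, or 4.0 CPM (3.25 to 4.86). ANXA8 and ANXA10, the latter known from gastric epithelium, had 5 counts each, and the intestinal ANXA13 had 1. ANXA8 has a near-identical copy, and its count is uncertain for that reason.

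Ordered by counts, the 22 detected members form 21 neighbouring pairs, and in 15 of them the counting interval of the ratio lay above 1. The 6 pairs that were not separated were ANXA3 and ANXA4, S100A4 and ANXA6, ANXA6 and S100A13, S100A13 and S100A14, S100A3 and S100A9, and S100A5 and S100A1. The ratio of ANXA3 to ANXA4 was 1.03 (0.963 to 1.11), and that of S100A4 to ANXA6 was 1.02 (0.934 to 1.12). The spread between cultures is not known from 1 library, so more pairs may be inseparable.

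Most S100 genes lie on chromosome 1, and the counts differed widely along it. In RefSeq gene order (GRCh38.p14, used for order and not for positions) 16 of the 20 S100 genes fall in 1 run, and they held 99.9% of S100 counts. S100A10 and S100A11 open the run with 19705 counts between them. The next 47 protein-coding genes, the epidermal differentiation genes such as late cornified envelope and small proline-rich proteins, held 365 counts together, with 38 at 0 and 4 detected. Those 4 were IVL with 186 counts, TCHH with 77, FLG with 56 and SPRR2D with 17. The cluster of 14 S100 genes follows. Its opening 5 genes, from S100A9 to S100A7, held 343 counts with 1 detected, and its closing 9, from S100A6 to S100A1, held 51288 counts with all 9 detected. Most counts of that closing block came from S100A6, with 40248. S100A5 with 19 counts sat between S100A6 and S100A4 with 970, and S100A1 had 14. S100A5 and S100A1 were thus near the minimum, and both overlap a gene with more reads.

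**Figure D4:**
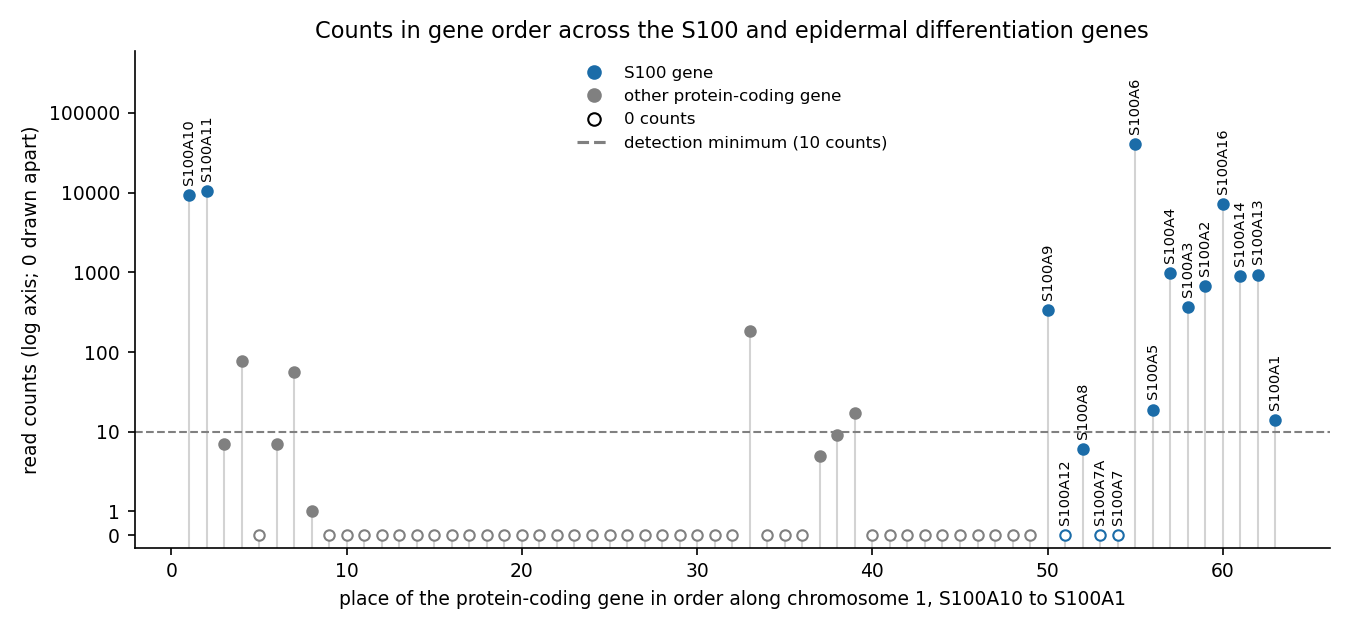
Read counts (log axis, 0 drawn apart as open circles) of 63 protein-coding genes in their order along chromosome 1, from S100A10 to S100A1, with S100 genes named in blue and other genes in grey. The S100A10 and S100A11 pair and the block from S100A6 to S100A1 stand above the dashed minimum of 10 counts, while most of the genes between them are at 0.

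In RefSeq (GRCh38.p14), 16 members overlap another annotated gene, which bears on low counts. The annotation used for the counting is not stated. S100A8, with 6 counts, overlaps S100A7A, at 0, and S100G, at 0, overlaps CTPS2, which had 430 counts. S100A13, with 931 counts, overlaps S100A1, with 14, on the opposite strand, and their ratio was 66.5 (39.4 to 122). S100A13 also overlaps CHTOP, which had 3379 counts. S100A4 overlaps S100A5 on the same strand. Sources used here do not give the strand setting of the counting. Whether the 931 reads of S100A13, the 14 of S100A1 and the 19 of S100A5 belong to those genes was not tested. Outside the members, 18 further rows carry an S100 or ANXA symbol and held 979 counts. The pseudogene ANXA2P2 had 134 counts, and ANXA2 had 201 (170 to 240) times as many. All 3 ANXA2 pseudogenes held 145 counts and the 8 S100A11 pseudogenes held 2, so few reads were assigned to these copies. S100PBP had 379 counts, the annexin A2 receptor gene ANXA2R had 172, and its neighbouring transcripts ANXA2R-OT1 and ANXA2R-AS1 had 176 and 105.

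Genes that act with these families were read from lists, to be set beside the 69.7% of all protein-coding genes that were detected. Of 7 S100-fused proteins, the long skin proteins that begin with an S100 domain, 2 were detected, TCHH with 77 counts and FLG with 56. HRNR and TCHHL1 had 7 each, FLG2 had 1, and CRNN and RPTN had 0. Of 13 squamous and keratinocyte markers 5 were detected, led by KRT10 with 855 counts, TP63 with 418 and IVL with 186, while SPRR1B had 9, KRT14 had 8 and KRT5 had 2, and the list held 1581 counts. Of 10 fibroblast and endothelial markers 2 were detected, PDGFRB with 150 counts and VWF with 10, and the list held 163 counts with 6 genes at 0.

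Of 10 receptors for secreted S100 proteins or annexins 7 were detected, or 70%, near the 69.7% of all protein-coding genes. Basigin (BSG), a receptor of S100A9, had 27199 counts, or 1087 CPM, ALCAM had 5796 counts and CLEC7A had 207. The main S100 receptor AGER, or RAGE, had 127 counts, or 5.08 CPM (4.23 to 6.04), and TLR4, a receptor of calprotectin, had 9. The annexin A1 receptors FPR1, FPR2 and FPR3 had 121, 11 and 0 counts, and CD36 had 5.

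Of 20 intracellular S100 partners 18 were detected, with a median of 30.1 CPM. The myosin heavy chain MYH9, a target of S100A4, had 96748 counts, or 3868 CPM, the scaffold AHNAK, which binds the S100A10 and annexin A2 complex, had 40042 counts, or 1601 CPM, and IQGAP1 had 8217 counts. CACYBP, the partner of S100A6, had 912 counts, and RYR2 and TRPV5 had 0. Of 19 annexin partners in membrane repair and traffic 18 were detected, with a median of 120.0 CPM, led by AHNAK, CAPN2 with 18827 counts and CTSB with 16713. The muscle repair gene TRIM72 had 1 count.

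Other calcium sensors were set beside the S100 genes. Of 21 other EF-hand genes 16 were detected. Their median was 111 CPM, above the 35.6 CPM of the 13 detected S100 genes, with no correction for transcript length. The list held 49307 counts. On it, HPCAL1 had 7251 counts and CALU had 5287. CALML3 had 3 counts, CALML5 had 1, and CALB1, CHP2 and PVALB had 0. Copines, which like annexins bind phospholipids with calcium, were listed together with synaptotagmin-like genes. On this list of 14, the minimum was passed by 12, and the median of those 12 was 19.2 CPM. CPNE1, CPNE7 and SYTL1 led with 4729, 4616 and 2874 counts, while CPNE9 had 6 and CPNE6 had 0. The reads of S100A6 alone thus exceeded those of each of these calcium sensors and copines.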

How the data were processed

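RNA-seq of 1 wild-type NCI-H1975 library was used. Per the labels' protocols, 1 ug of Trizol-extracted total RNA went into a directional NEBNext library. Per gene, the authors deposited raw read counts under Ensembl identifiers, with no normalisation. For RNA alignment and counting, the tools named in the submitters' processing notes that can serve are STAR and featureCounts, with genome build hg19. Their settings, the annotation and the treatment of shared reads are not stated in the sources used here.

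Of 60880 rows 56373 matched a symbol, with 99.8% of counts, and RefSeq (GRCh38.p14) gave gene type, order and promoter sequence. CPM used the total of 25012733 counts. Levels have exact Poisson, shares exact binomial (Clopper-Pearson) and ratios conditional 95% intervals. The code was tested on simulated data.

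The text names all members, and from each of 11 lists the 3 highest genes, genes under 10 counts, and others added after their counts were seen. Some list genes are not reported here. Members and lists were chosen with earlier results of these data known, and the TATA-box and AP-1 searches, the CpG numbers, the gene order and 3 ratios were added after the counts were seen. Alternatives were other minimums, other totals, thinning to 50% and added copies. Counts per coding length and protein features were planned and not run, because no protein or transcript lengths were used. Software was SciPy 1.17.1, pandas 2.3.3 and NumPy 2.4.6 under Python 3.11.15, with figures by Matplotlib 3.10.9.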

Additional observations from a re-analysis of the deposited data

How the results depend on the processing

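The number of detected members in all and in each family stayed within 1.5 times of its value at a minimum of 1 count, 50 counts or 1 CPM and after thinning to 50%. At a minimum of 1 count, 2 inflammatory S100 genes and all 5 tissue-restricted annexins passed, and the median over annexins was 63.2 CPM. At 50 counts and at 1 CPM, 1 tissue-restricted S100 gene, S100A3, passed. The S100 share of counts became 0.302% without mitochondrial genes in the total, 0.307% without the 10 genes with the highest counts and 0.311% of protein-coding counts. The annexin share became 0.281%, 0.287% and 0.29%, and 0.269% with pseudogenes and other rows of the name added. Smaller totals raise every share by construction. After thinning, the ratios of S100A6 to S100A4 (38.5) and of ANXA5 to ANXA4 (3.73) fell outside their intervals, and the other 10 ratios stayed inside. The thinned ratios of ANXA2 to ANXA2P2 and S100A10 to S100A11 were chosen after seeing the data. Counts per coding length were not run. No paired analysis was possible because the counts come from a single library. Depth limits the genes under 10 counts, and replicate spread is unknown.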
